A study of Mus musculus with 22 samples.

Results

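The 10 long noncoding RNAs described here are Malat1, Neat1, Tug1, Kcnq1ot1, Gas5, Snhg1, Snhg3, Snhg12, Pvt1 and Lncenc1. They were chosen by name, as abundant nuclear RNAs or hosts of small nucleolar RNAs (snoRNAs) that a total RNA library can capture. Earlier results of these data were known at that point, so the choice was not blind to them. All 10 stood among the 44749 entries of the count table, of which 8025 carry the symbol of a long noncoding gene in GENCODE vM21. The RNA came from whole cells, so whether a given RNA lay in the nucleus was not measured.

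The cells were male mouse embryonic stem cells (ESCs) grown without feeder cells in serum and LIF, and 22 libraries were made from their total RNA. A first set, of 8 libraries, used conditional knockout (cKO) cells for Ythdc1 from 2 ESC lines. Of these libraries 4 had DMSO and 4 had 4OHT, a ligand used to switch on inducible Cre. A second set held 2 Mettl3 wild type (WT) and 2 Mettl3 knockout (KO) libraries. The last, called the Dux set here, combined Ythdc1 cKO with a Dux-Het or a Dux-KO label, with 2 libraries for each of these labels under DMSO and 2 under 4OHT, plus 1 DMSO and 1 4OHT library with no Dux label. Every library of the first and last sets is Ythdc1 cKO, and no library gives 4OHT to cells with intact Ythdc1, so exposure to 4OHT and loss of Ythdc1 cannot be told apart. The labels name neither the Cre driver, nor the duration of treatment, nor separate cultures for the replicates. The p-values therefore reflect the scatter among the libraries at hand, which may be technical.

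Adenosines of many RNAs are methylated at the N6 position (m6A) by a nuclear complex whose catalytic subunit is Mettl3, and Ythdc1 is the nuclear protein that reads the mark. Malat1 and Neat1 are retained in the nucleus, where Malat1 gathers at nuclear speckles, the stores of splicing factors, and Neat1 is the scaffold of paraspeckles, bodies that hold RNA-binding proteins such as Sfpq and Nono. Kcnq1ot1 is transcribed from the paternal chromosome antisense to Kcnq1 and silences imprinted genes around it. Pvt1 and Lncenc1 are long intergenic RNAs, Pvt1 lying downstream of Myc and Lncenc1 known from naive pluripotent cells, and Tug1 overlaps the start of Morc2a on the opposite strand. Gas5, Snhg1, Snhg3 and Snhg12 carry snoRNAs in their introns, and their spliced RNAs are short-lived because translation exposes them to nonsense-mediated decay.

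The letters GGACT are a common form of the sequence at which m6A is placed. They are shown in capitals below for the 4 members most often discussed as nuclear regulators. Each line is the 60-base window of the longest annotated transcript that holds the most copies, or the first where windows tie. In Tug1 no window held more than 1 of its 9 copies, so the one shown is only the first. All 4 lie on the minus strand and are written 5′ to 3′ from GENCODE vM21 on GRCm38.
Malat1, chr19:5801417-5801476: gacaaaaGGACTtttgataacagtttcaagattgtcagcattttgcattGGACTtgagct
Neat1, chr19:5845074-5845133: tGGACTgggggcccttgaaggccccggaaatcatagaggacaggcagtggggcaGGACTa
Tug1, chr11:3647416-3647475: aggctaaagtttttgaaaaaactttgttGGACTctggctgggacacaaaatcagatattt
Kcnq1ot1, chr7:143286368-143286427: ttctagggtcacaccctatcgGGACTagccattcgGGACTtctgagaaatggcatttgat
Over the whole transcript, sense strand only, Malat1 held 9 copies of GGACT (1.29 per kb), Neat1 23 (1.11 per kb), Tug1 9 (1.34 per kb) and Kcnq1ot1 80 (0.859 per kb). The median over 29786 genes with a transcript of at least 1000 bases was 0.957 per kb, so the density in these 4 RNAs was close to that of an ordinary transcript. Pvt1 held 6 copies (1.81 per kb), Gas5 3, Lncenc1 2, Snhg1 1, and Snhg3 and Snhg12 none. A match of these letters is no evidence of a methylated base, and methylation was not measured here.

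The start sites of the 4 snoRNA hosts are shown because hosts of this kind often begin with a run of pyrimidines, a feature of genes whose translation follows cell growth. Each line gives 20 bases before and 50 bases after the start listed by RefSeq (GRCm38.p6), 5′ to 3′ on the strand of the gene, with the longest run of C or T that begins within 20 bases of the start in capitals.
Snhg1, chr19:8723467-8723536, plus strand: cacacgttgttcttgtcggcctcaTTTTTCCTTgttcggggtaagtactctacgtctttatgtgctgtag
Snhg12, chr4:132308658-132308727, plus strand: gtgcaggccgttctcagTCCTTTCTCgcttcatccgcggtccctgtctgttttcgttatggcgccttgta
Gas5, chr1:161035146-161035215, plus strand: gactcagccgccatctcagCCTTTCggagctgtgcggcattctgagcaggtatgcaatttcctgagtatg
Snhg3, chr4:132353637-132353706, minus strand: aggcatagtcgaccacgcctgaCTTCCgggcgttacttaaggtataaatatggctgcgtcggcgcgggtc
The run was 9 bases long in Snhg1 and Snhg12, 6 at the Gas5 start shown and 5 in Snhg3. RefSeq lists another Gas5 start, upstream of the one shown, with a longest run of 3. Runs of at least 8 occurred in 16.0% of 32851 RefSeq windows. RefSeq windows were matched for 8 of the 10 members, and Neat1 and Pvt1 had none.

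Total counts ran from 24.96 to 54.14 M per library, and repeat families took 16.39% to 28.78% of them. The repeat share separated the treatments, at 21.3% to 23.8% under DMSO and 26.9% to 28.4% under 4OHT in the Ythdc1 set and at 16.4% to 21.0% and 24.0% to 25.02% in the Dux set, and its part in the changes of the members was not tested. Ythdc1 itself was at 70.8 to 80.2 CPM (counts scaled to a common library size) in the 4 Ythdc1 cKO libraries under DMSO and at 49.0 to 62.8 under 4OHT, over the whole gene. The treatments overlapped in Dux-Het (58.9 and 86.5 under DMSO, 52.2 and 65.9 under 4OHT) and in Dux-KO (49.7 and 71.3, then 53.9 and 56.6), so the count did not mark those 4OHT libraries. The Mettl3 KO libraries held more Ythdc1, 136 and 154 CPM, than WT, 81.7 and 83.6. Mettl3 was at 29.0 and 29.9 CPM in the WT libraries, at 14.5 in Mettl3 KO replicate 1 and at 28.4 in Mettl3 KO replicate 2, so the count of that gene did not mark the second as a knockout. No source at hand gives the deleted part of either gene, so a count over the whole gene is a weak check, and the KO group is called by its label throughout. The 6 ESC markers were found in every library, with a summed level of 1230 to 1360 CPM under DMSO and 844 to 1030 under 4OHT in the Ythdc1 set. The summed level of 8 markers of two-cell-like cells, a rare state of ESC cultures, was 7.03 to 29.4 CPM under DMSO and 85.8 to 184 under 4OHT there, 0.702 to 1.2 in Mettl3 WT and 92.9 to 99.4 in the KO libraries. In the Dux-KO libraries all 8 were at 0 under DMSO and 7 of 8 at 0 under 4OHT. Fibroblast markers summed to at most 66.5 CPM in any library. Of 6 primitive endoderm markers 4 rose in the Ythdc1 set, and their summed level was 26.9 to 37.9 CPM under DMSO and 33.1 to 42.4 under 4OHT there, with overlap. It went, without overlap, from a range of 14 to 18.4 CPM to one of 22.2 to 28.1 in the Dux set. The part of these cell states in the changes of the members was not tested. A change in bulk RNA can come from fewer cells of a kind or from less RNA per cell, and these cannot be told apart.

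Malat1 was by far the most abundant of the 10, at 0.358% to 0.849% of all counts in a library. Averaged over the 10 groups and divided by exon length, it stood at 760 CPM per kb, followed by Snhg3 at 76.5, Lncenc1 at 48.3, Gas5 at 36.3, Snhg1 at 28.6, Snhg12 at 10.9, Tug1 at 10.2, Neat1 at 8.55, Kcnq1ot1 at 5.3 and Pvt1 at 4.06. The order below Malat1 depended on the set: in the Ythdc1 cKO DMSO group Gas5 came next at 46.0 CPM per kb, then Snhg3 at 36.0, Snhg1 at 32.5, Tug1 at 16.0 and Lncenc1 at 14.8. The lowest raw count of any member in any library was 414, for Snhg12, so all 10 passed the filter on low counts in every fit. Neat1 varied most between groups, 6.07-fold from its lowest to its highest group mean, then Lncenc1 (5.01-fold) and Snhg3 (3.96-fold). For Lncenc1 and Snhg3 that range lay between the sets of libraries. Under DMSO, Lncenc1 was 4.02 times, Snhg3 2.77 times and Neat1 1.96 times as high in the Dux set as in the Ythdc1 set. This is a description of control levels without a test, since set and library series cannot be told apart.

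**Figure D1:**
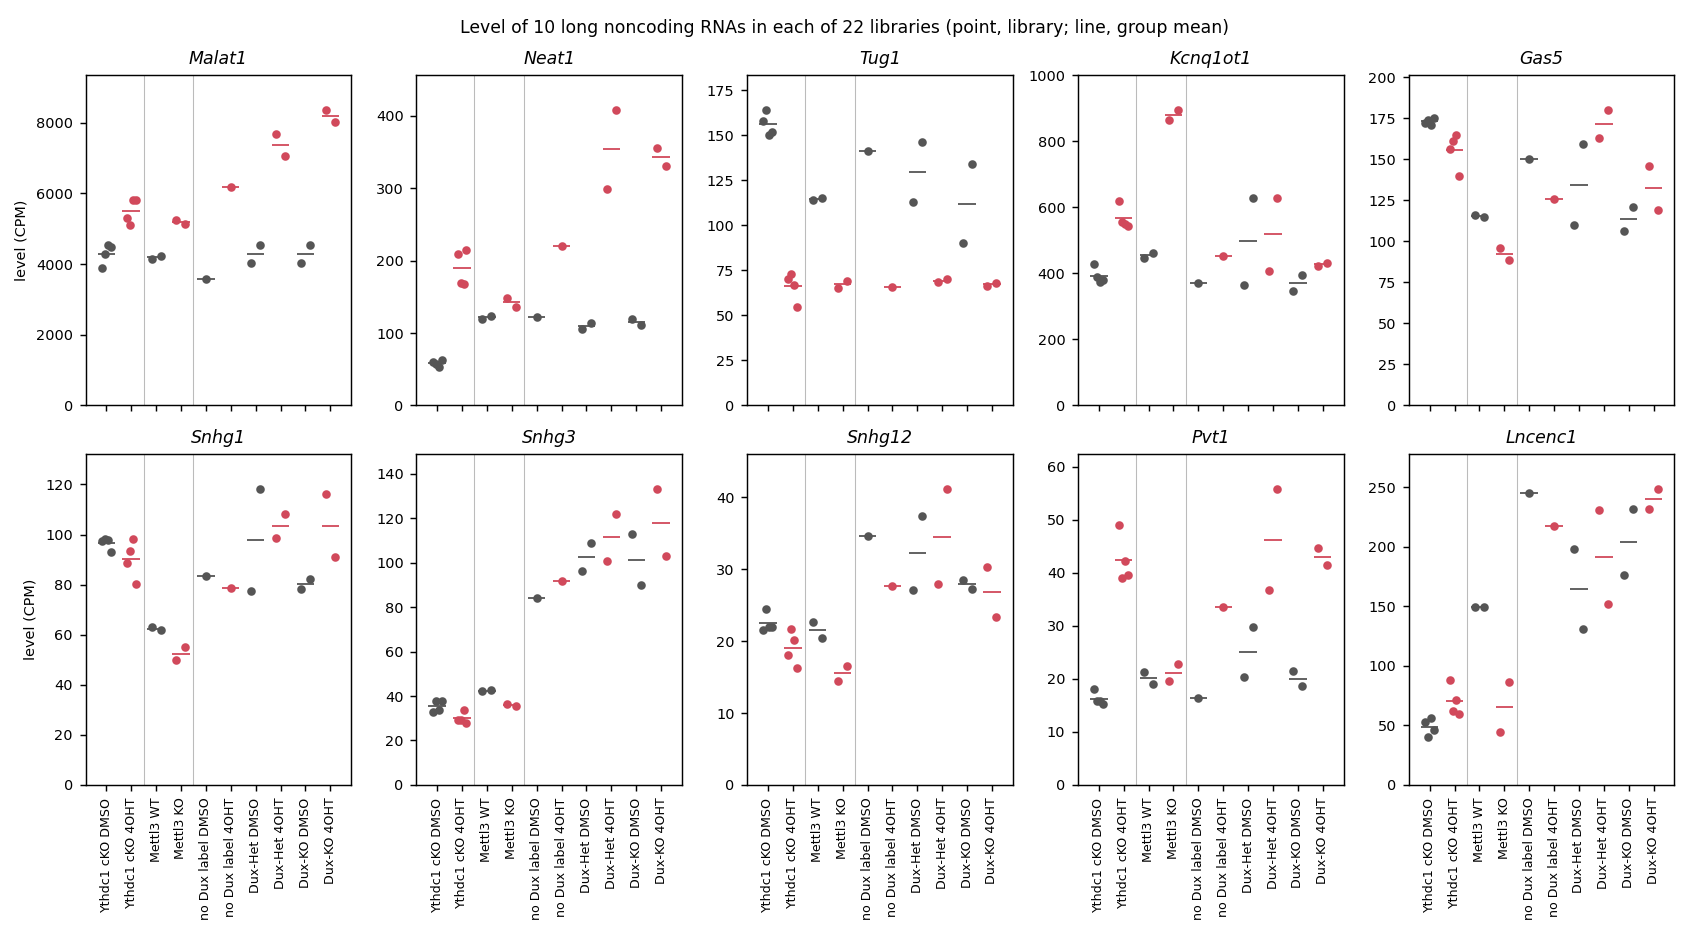
Level of each of the 10 RNAs (y axis, CPM, linear and starting at 0) in each of 22 libraries, by group (x axis); points are libraries, short lines group means, dark marks DMSO or WT and red marks 4OHT or KO. Tug1 lies between 54.7 and 73.2 CPM in every 4OHT and KO library and at 90.1 or more in every DMSO and WT library, while Snhg3 separates the Dux set from the other libraries more than it separates the treatments.

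In the Ythdc1 set 7 of the 10 members differed between 4OHT and DMSO at an adjusted p below 0.05 in edgeR's quasi-likelihood test, 5 higher and 2 lower. Changes were widespread in this comparison: 45.1% of 24385 entries passed, 23.7% higher and 21.4% lower, and among 3186 long noncoding genes 33.9%. Neat1, Pvt1, Kcnq1ot1, Lncenc1 and Malat1 rose, and Tug1 and Snhg3 fell. With the library number as a replicate block 9 members passed, Gas5 and Snhg12 also lower, where 48.8% of all entries passed. Between the Mettl3 KO and WT libraries 6 members passed, Kcnq1ot1 and Malat1 higher and Tug1, Lncenc1, Gas5 and Snhg12 lower, where 31.2% of 23977 entries passed (16.4% higher, 14.9% lower). This count fell to 1 without Mettl3 WT replicate 1 and to 2 without Mettl3 WT replicate 2. Leaving out 1 of these libraries leaves a group with 1 sample, which is then assumed to vary like the pair that remains, and the WT pair differed less (chi-square per degree of freedom 3.741) than the KO pair (15.222). Without WT replicate 1 the share of all entries called was 1.36%.

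Within the Dux set the same 4 members passed in Dux-Het and in Dux-KO cells, Malat1, Neat1 and Pvt1 higher under 4OHT and Tug1 lower. The background was 9.34% of 29322 entries in Dux-Het (4.99% higher, 4.34% lower) and 9.86% in Dux-KO (5.5% higher, 4.36% lower). In the pooled fit of 10 libraries, with the Dux label as a term, these 4 passed again and no other, against 36.4% of 29322 entries (20.2% higher, 16.2% lower). The 3 comparisons share libraries and are not independent of each other. The Dux-Het and Dux-KO values come from 1 fit of the 10 libraries that shares its estimate of the spread. The counts within each Dux label rested on single libraries: the count was 2 in Dux-Het without Dux-Het 4OHT replicate 2, and 2 in Dux-KO without Dux-KO DMSO replicate 2 or either Dux-KO 4OHT replicate.

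**Figure D2:**
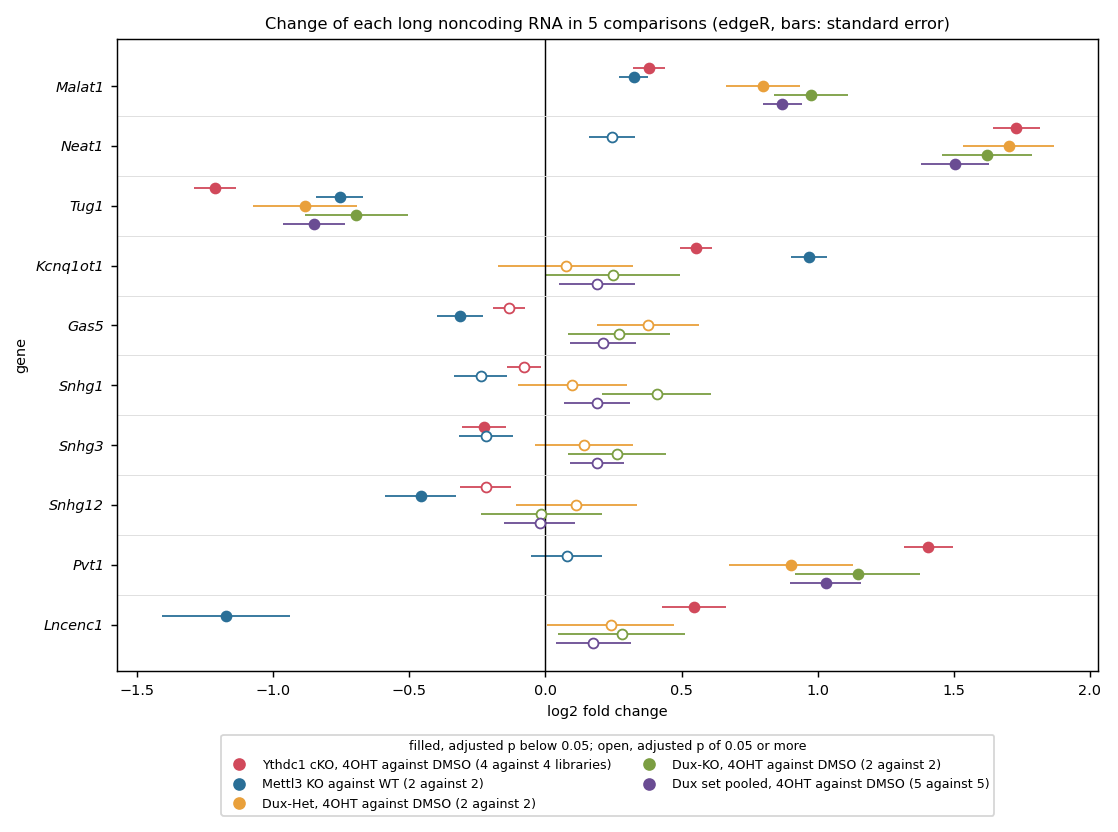
Log2 fold change of each RNA (x axis) in 5 comparisons (colours), with bars for the standard error and filled points for an adjusted p below 0.05 in edgeR. Neat1, Pvt1 and Malat1 lie right of 0 and filled in all 4 comparisons of 4OHT with DMSO, Tug1 lies left of 0 and filled in all 5 comparisons, and Lncenc1 lies on opposite sides in the Ythdc1 and Mettl3 sets.

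Malat1 (chr19:5795690-5802672, minus strand, 1 exon of 6983 bases), the RNA of nuclear speckles, rose in every comparison of 4OHT with DMSO and of KO with WT. Within the Ythdc1 set its level was 3890, 4290, 4530 and 4480 CPM under DMSO and 5310, 5100, 5820 and 5820 under 4OHT. The 4 libraries under 4OHT all lay above the 4 under DMSO, with a log2 fold change of 0.38 (SE 0.0589, adjusted p 6.58e-05, edgeR). The 2 WT libraries of the Mettl3 set were at 4150 and 4230 CPM and the 2 KO libraries at 5250 and 5130, again without overlap (log2 fold change 0.32, SE 0.0534, adjusted p 0.00181, edgeR). The adjusted p from edgeR was 0.155 without WT replicate 1 and 0.101 without WT replicate 2, at 0.29 and 0.34 on the log2 scale.

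In the Dux set the rise of Malat1 was larger. Its levels under DMSO were 4040 and 4530 CPM in Dux-Het, 4040 and 4540 in Dux-KO and 3570 with no Dux label. Under 4OHT they were 7680 and 7050 in Dux-Het, 8360 and 8020 in Dux-KO and 6180 with no Dux label. Every library under 4OHT lay above every one under DMSO. The log2 fold change was 0.80 in Dux-Het (SE 0.135, adjusted p 0.00524) and 0.97 in Dux-KO (SE 0.136, adjusted p 0.00187), both by edgeR. Pooled over the 10 libraries it was 0.87 (SE 0.0712, adjusted p 1.8e-06, edgeR), a 1.83-fold rise.

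A fit of the 18 Ythdc1 cKO libraries, added after the data had been seen, tested the difference between the 4OHT effects of the Ythdc1 set and the Dux set. Malat1 was the 1 member that passed, its effect smaller by 0.47 on the log2 scale in the Ythdc1 set (difference -0.47, SE 0.0924, adjusted p 0.00877, edgeR), where 2.1% of 31020 entries passed (1.27% higher, 0.832% lower). Without Dux-Het DMSO replicate 2 the count was 2, Snhg3 passing as well (-0.49, adjusted p 0.0446, edgeR), and with no filter on low counts it was 4. The DMSO levels overlapped, at 3890 to 4530 CPM in the Ythdc1 set and 3570 to 4540 in the Dux set. The summed two-cell-like markers, 85.8 to 184 CPM under 4OHT in the Ythdc1 set, were 41.0 to 57.0 in the Dux-Het libraries and those with no Dux label and at most 0.0398 in Dux-KO. Their part in the difference was not tested.

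Neat1 (chr19:5824708-5845478, minus strand, 1 exon of 20771 bases), the paraspeckle scaffold, showed the largest fitted rise of the 10 after 4OHT in the Ythdc1, Dux-Het, Dux-KO and pooled Dux comparisons. Under DMSO the Ythdc1 set held 59.8, 56.6, 52.9 and 63.4 CPM, and under 4OHT 209, 169, 168 and 214. All 4 libraries under 4OHT stood far above those under DMSO, a 3.32-fold difference (log2 fold change 1.73, SE 0.0866, adjusted p 5.54e-10, edgeR). In the Dux set it went from 106 and 114 CPM to 299 and 408 in Dux-Het, from 119 and 111 to 356 and 330 in Dux-KO, and from 122 to 220 with no Dux label. These groups did not overlap either, and the fitted change was 1.70 in Dux-Het (SE 0.166, adjusted p 0.000239), 1.62 in Dux-KO (SE 0.166, adjusted p 0.000295) and 1.5 pooled (SE 0.126, adjusted p 2.14e-06) on the log2 scale in edgeR.

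In the Mettl3 set Neat1 was at 119 and 124 CPM in WT and at 149 and 136 in KO. The KO libraries lay above, but the difference of 0.25 on the log2 scale (SE 0.0852) had an adjusted p of 0.0542 in edgeR. With total-count scaling it passed (adjusted p 0.0273). It also passed without KO replicate 1 (adjusted p 0.0279) or KO replicate 2 (adjusted p 8.55e-05), where the spread comes from the WT pair alone, all in edgeR. The Ythdc1 effect exceeded the Mettl3 effect by 1.53 (SE 0.143, adjusted p 2.77e-07) in the edgeR fit of both sets. In that fit 25.3% of 28260 entries passed (13.7% higher, 11.6% lower). The mean control level of Neat1 differed too, at 58.2 CPM under DMSO in the Ythdc1 set and 121 in Mettl3 WT. In this test, for every member, the gene targeted, exposure to 4OHT and the set of libraries cannot be told apart.

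Paraspeckle proteins bind and assemble on Neat1. Of all entries, 21.4% fell in the Ythdc1 set, 14.9% in the Mettl3 set and 16.2% in the pooled Dux set. Under 4OHT in the Ythdc1 set 11 of 13 listed genes for paraspeckle proteins fell. Their median log2 fold change was -0.34 against 0.02 over all entries tested. The largest falls were Ewsr1, an RNA-binding protein, from 354 ± 6.9 to 238 ± 17.2 CPM (SD, n = 4 each; log2 fold change -0.55, adjusted p 1.38e-06, edgeR), and Matr3, a nuclear matrix protein, from 272 ± 11.4 to 185 ± 6.08 (log2 fold change -0.53, adjusted p 8.58e-07, edgeR). The other 2 did not pass. Between Mettl3 KO and WT 6 of the 13 fell and the other 7 did not pass (median -0.22), led by Nudt21, a subunit of cleavage factor I (-1.01, adjusted p 7.64e-05, edgeR), and Taf15 (-0.68, adjusted p 0.000675, edgeR). In the pooled Dux set 1 was higher, Pspc1 (0.51, adjusted p 0.000962, edgeR), and 8 lower (median -0.28), led by Taf15 (-0.63, adjusted p 0.000247, edgeR) and Matr3 (-0.43, adjusted p 0.00128, edgeR).

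Malat1 and Neat1 lie in 1 stretch of chromosome 19, with Frmd8 4.223 kb beyond Neat1 on its upstream side. Frmd8 rose in the Ythdc1 set (log2 fold change 0.70, adjusted p 3.73e-06, edgeR). It did not pass in the pooled Dux set (0.23, adjusted p 0.128, edgeR) or in the Mettl3 set (0.11, adjusted p 0.62, edgeR).

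Tug1 (chr11:3639785-3649673, minus strand, 2 exon blocks with 9734 bases) was the member that fell in every comparison of 4OHT with DMSO and of KO with WT. For the Ythdc1 set, it was at 158, 164, 150 and 152 CPM under DMSO and at 70.3, 73.2, 67.1 and 54.7 under 4OHT. The level under 4OHT was less than that of the lowest DMSO library in all 4, a 2.32-fold fall (log2 fold change -1.21, SE 0.0762, adjusted p 5.05e-09, edgeR). The Mettl3 WT libraries were at 114 and 115 CPM and the KO libraries at 65.1 and 69.3 (log2 fold change -0.76, SE 0.0862, adjusted p 0.000264, edgeR). Again the groups did not overlap. The adjusted p in edgeR was 0.0615 without WT replicate 1.

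The DMSO libraries of the Dux set were less even for Tug1, at 113 and 146 CPM in Dux-Het, 90.1 and 134 in Dux-KO and 141 with no Dux label. Under 4OHT the 5 libraries were close together, at 68.7 and 70.0 in Dux-Het, 66.4 and 67.9 in Dux-KO and 65.6 with no Dux label. All of these lay below all DMSO libraries. The pooled change was -0.85 on the log2 scale (SE 0.112, adjusted p 8.66e-05, edgeR). In Dux-Het alone it was -0.88 (adjusted p 0.0166) and in Dux-KO alone -0.69 (adjusted p 0.0432), in edgeR. With 2 libraries a group these calls were fragile. In Dux-Het the adjusted p was 0.0754 without DMSO replicate 2, 0.0666 without 4OHT replicate 1 and 0.0728 without 4OHT replicate 2, and in Dux-KO 0.162 without DMSO replicate 2 (log2 fold change -0.42), 0.218 without 4OHT replicate 1 and 0.231 without 4OHT replicate 2, all in edgeR. Total-count scaling also gave an adjusted p of 0.0837 in Dux-KO in edgeR.

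Across the 22 libraries Tug1 was at 54.7 to 73.2 CPM in those labelled 4OHT or Mettl3 KO and at 90.1 to 164 CPM in those labelled DMSO or WT. Its fall was deeper in the Ythdc1 set than in the Mettl3 set by 0.42 on the log2 scale (difference -0.42, SE 0.129, adjusted p 0.0227, edgeR). This call was lost without Mettl3 WT replicate 1 (adjusted p 0.0625), WT replicate 2 (0.0583) or KO replicate 2 (0.0555) in edgeR. Tug1 shares 483 exonic bases, 4.962% of its own, with Morc2a on the opposite strand. No source at hand says whether the counting used strand. Morc2a, which encodes a chromatin ATPase, was 112 ± 5.58 CPM under DMSO and 110 ± 3.47 under 4OHT in the Ythdc1 set (SD, n = 4 each) and passed in none of the 3 sets.

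Kcnq1ot1 (chr7:143203458-143296549, minus strand, 1 exon of 93092 bases), the imprinted antisense RNA, rose in the Ythdc1 and Mettl3 sets. It was at 429, 388, 374 and 379 CPM under DMSO and 619, 556, 550 and 544 under 4OHT in the Ythdc1 set. The groups did not overlap (log2 fold change 0.55, SE 0.0596, adjusted p 1.61e-06, edgeR). The Mettl3 KO libraries, at 866 and 895 CPM against 448 and 463 in WT, showed the highest levels of any group (log2 fold change 0.97, SE 0.0666, adjusted p 2.6e-05, edgeR). The Ythdc1 effect was smaller than the Mettl3 effect by 0.37 (difference -0.37, SE 0.0969, adjusted p 0.00744, edgeR).

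In Dux-Het cells Kcnq1ot1 differed more between libraries of 1 group than between treatments. Dux-Het libraries were at 366 and 629 CPM under DMSO and at 408 and 628 under 4OHT, with replicate 2 high in both. Dux-KO libraries were at 347 and 395 under DMSO and 423 and 432 under 4OHT, without overlap but not passing (0.25, adjusted p 0.573, edgeR), and the pair with no Dux label at 370 and 452. The pooled change of 0.19 (SE 0.141) did not pass (adjusted p 0.321, edgeR), and it was 0.35 without Dux-Het DMSO replicate 2 (adjusted p 0.0305, edgeR). The difference between the Ythdc1 set and the Dux set effects was 0.38 (SE 0.169, adjusted p 0.261, edgeR), so a difference between the sets was not shown.

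Over all entries 45.1% passed in the Ythdc1 set, 31.2% in the Mettl3 set and 36.4% in the pooled Dux set. Of the 7 genes listed around Kcnq1ot1, 5 passed in the Ythdc1 set, 4 higher and 1 lower. Kcnq1, which contains the antisense RNA and shares 121 exonic bases with it, rose from 1.49 ± 0.248 to 2.28 ± 0.0833 CPM (SD, n = 4 each; log2 fold change 0.64, adjusted p 0.0169, edgeR). Cd81, a tetraspanin gene, rose from 118 ± 2.95 to 184 ± 15.3 CPM (0.67, adjusted p 3.99e-07, edgeR). Slc22a18 (0.89, adjusted p 0.0361) and Tssc4 (0.34, adjusted p 0.0129) also rose, and Phlda2, a placental growth regulator silenced on the paternal allele, fell from 10.5 ± 1.99 to 6.1 ± 0.79 CPM (-0.76, adjusted p 0.00041), all in edgeR. Cdkn1c and Ascl2 did not pass. In the Mettl3 set, where Kcnq1ot1 rose most, Kcnq1 (1.22, adjusted p 0.0111) and Tssc4 (0.51, adjusted p 0.0312) rose and Phlda2 did not pass (-0.16, adjusted p 0.606) in edgeR. In the pooled Dux set, where Kcnq1ot1 did not pass, Phlda2 fell (-1.17, adjusted p 4.31e-05) and Cd81 (0.86, adjusted p 6.71e-06) and Slc22a18 (1.13, adjusted p 0.000499) rose in edgeR.

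Pvt1 (chr15:62037986-62378096, plus strand, 21 exon blocks with 6996 bases) rose after 4OHT and not in the Mettl3 set. In the Ythdc1 set it was at 18.1, 15.9, 15.9 and 15.2 CPM under DMSO and at 49.0, 39.1, 42.2 and 39.5 under 4OHT. The groups were far apart, a 2.65-fold rise (log2 fold change 1.41, SE 0.089, adjusted p 5.42e-09, edgeR). The Mettl3 set had 21.3 and 19.1 CPM in WT and 19.5 and 22.8 in KO, which overlap (log2 fold change 0.08, SE 0.13, adjusted p 0.693, edgeR). The difference between both effects was 1.37 (SE 0.161, adjusted p 3.83e-06, edgeR).

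Dux-Het libraries had 20.3 and 29.7 CPM of Pvt1 under DMSO and 36.7 and 55.7 under 4OHT, Dux-KO libraries 21.4 and 18.6 under DMSO and 44.6 and 41.4 under 4OHT, and the pair with no Dux label 16.4 and 33.6. No library under DMSO reached any under 4OHT. The pooled rise was 1.03 (SE 0.131, adjusted p 6.56e-05, edgeR). The separate values were 0.90 in Dux-Het (adjusted p 0.0318) and 1.15 in Dux-KO (adjusted p 0.0123), in edgeR. In Dux-Het the adjusted p was 0.156 without DMSO replicate 1, 0.223 without 4OHT replicate 2 (log2 fold change 0.56), 0.0729 without Dux-KO 4OHT replicate 1 and 0.0698 without Dux-KO 4OHT replicate 2, since the fit shares its spread over the set. In Dux-KO it was 0.0737 without DMSO replicate 1, 0.0711 without DMSO replicate 2, 0.121 without 4OHT replicate 1 and 0.088 without 4OHT replicate 2 (edgeR).

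Myc, the transcription factor gene that ends 47.611 kb before Pvt1, did not follow it in every set. Within the Ythdc1 set it rose from 24.6 ± 9.88 to 48.6 ± 2.64 CPM (SD, n = 4 each; log2 fold change 1.00, adjusted p 0.000216, edgeR). Within the Mettl3 set it fell from 21.0 ± 1.82 to 10.9 ± 2.68 (SD, n = 2 each; log2 fold change -0.93, adjusted p 0.00365, edgeR) while Pvt1 did not pass. Across the pooled Dux set it was 19.1 ± 4.35 under DMSO and 15.4 ± 2.53 under 4OHT (SD, n = 5 each; log2 fold change -0.28, adjusted p 0.0957, edgeR). The Myc effect of the Ythdc1 set exceeded that of the Dux set by 1.30 (adjusted p 0.0066, edgeR), where the difference for Pvt1 was 0.40 (SE 0.169, adjusted p 0.241, edgeR).

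Lncenc1 (chr13:97434970-97497007, plus strand, 6 exon blocks with 3301 bases), the RNA of naive pluripotent cells, moved in opposite directions in the Ythdc1 and Mettl3 sets. It was at 52.9, 40.4, 56.1 and 46.2 CPM under DMSO and 87.9, 61.9, 71.2 and 59.8 under 4OHT. The lowest library under 4OHT exceeded the highest under DMSO (log2 fold change 0.55, SE 0.118, adjusted p 0.00124, edgeR). Both Mettl3 WT libraries were at 149 CPM, and the KO libraries were at 44.3 and 86.4 (log2 fold change -1.17, SE 0.235, adjusted p 0.00496, edgeR). Both KO libraries lay below WT, but far apart from each other. The adjusted p was 0.147 without WT replicate 1 and 0.0914 without WT replicate 2 (edgeR). The change ran from -1.75 to -0.78 with either KO library left out. KO replicate 1, with the lower Lncenc1, was also the library with less Mettl3, and a link between them was not tested.

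The difference between the Ythdc1 and Mettl3 effects on Lncenc1 was 1.76 (SE 0.268, adjusted p 6.2e-05, edgeR), and it passed in all 19 alternatives run for it, from 1.33 to 2.29. The mean control levels were far apart, at 48.9 CPM under DMSO and 149 in Mettl3 WT. The means under 4OHT, 70.2 CPM, and in Mettl3 KO, 65.4, were close, so the opposite directions go with unlike controls. In the Dux set Lncenc1 was high under both treatments. Under DMSO it was at 198 and 131 CPM in Dux-Het, 176 and 232 in Dux-KO and 245 with no Dux label. Under 4OHT it was at 231 and 152 in Dux-Het, 232 and 248 in Dux-KO and 217 with no Dux label. These ranges overlap, and the pooled change of 0.18 (SE 0.138) did not pass (adjusted p 0.348, edgeR).

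**Figure D3:**
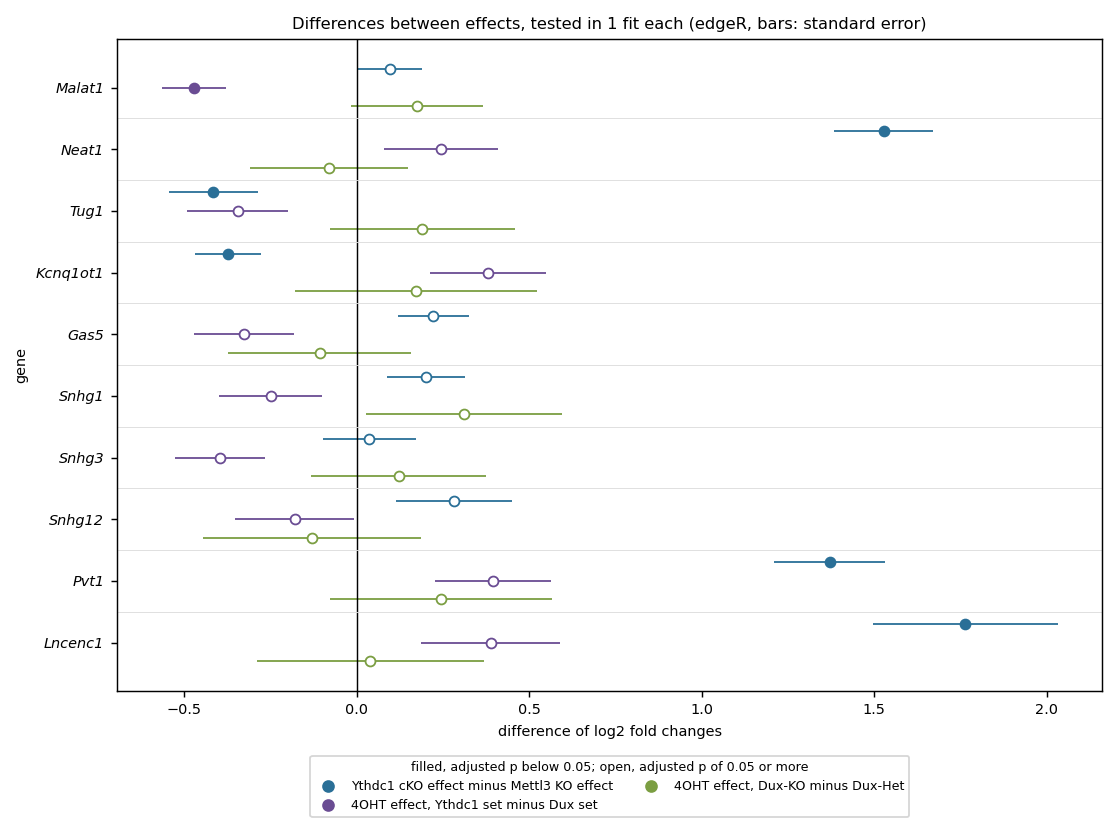
Differences between effects for each RNA (x axis, difference of log2 fold changes, with the standard error) for the Ythdc1 effect minus the Mettl3 effect, the 4OHT effect of the Ythdc1 set minus that of the Dux set, and the 4OHT effect in Dux-KO minus that in Dux-Het; filled points have an adjusted p below 0.05 in edgeR. Neat1, Pvt1 and Lncenc1 are filled to the right for the first, at 1.53, 1.37 and 1.76, Malat1 alone is filled for the second, and no point is filled for the third.

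Of the 4 snoRNA hosts, Snhg3 passed in the Ythdc1 set and Gas5 and Snhg12 in the Mettl3 set, each lower. Gas5 (chr1:161034422-161038539, plus strand) was at 172, 174, 171 and 175 CPM under DMSO and 156, 161, 165 and 140 under 4OHT in the Ythdc1 set. All 4 libraries under 4OHT lay below, but the change of -0.13 (SE 0.058) had an adjusted p of 0.0705 in edgeR. With the library number as a replicate block it was -0.14 with an adjusted p of 0.0398 in edgeR. In the Mettl3 set Gas5 fell from 116 and 115 CPM in WT to 95.8 and 88.7 in KO (-0.31, SE 0.085, adjusted p 0.0201, edgeR). That call was lost without WT replicate 1 (adjusted p 0.227) or WT replicate 2 (adjusted p 0.215) in edgeR. In the Dux set it ranged from 106 to 159 CPM under DMSO and from 119 to 180 under 4OHT, which overlap (pooled change 0.21, SE 0.12, adjusted p 0.193, edgeR).

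Snhg1 (chr19:8723475-8726443, plus strand) was at 93 to 98.4 CPM under DMSO and 80.3 to 98.2 under 4OHT in the Ythdc1 set, which overlap (-0.08, SE 0.0633, adjusted p 0.335, edgeR). Its levels in the Mettl3 set were lower in both KO libraries, 49.7 and 55.1 CPM, than in WT, 62.9 and 62.0, but the change of -0.24 (SE 0.0974) did not pass (adjusted p 0.0958, edgeR). With the spread taken from the WT pair alone, it passed without KO replicate 2 (-0.33, adjusted p 0.00138, edgeR). In the Dux set Snhg1 ran from 77.3 to 118 CPM under DMSO and from 78.6 to 116 under 4OHT, with a pooled change of 0.19 (SE 0.122, adjusted p 0.251, edgeR). Without Dux-Het DMSO replicate 2, the library at 118 CPM, the pooled change was 0.31 (adjusted p 0.0344, edgeR).

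Snhg3 (chr4:132348014-132353686, minus strand) was at 32.7, 37.9, 33.5 and 37.9 CPM under DMSO and 29.1, 29.1, 33.6 and 28.0 under 4OHT in the Ythdc1 set. The groups overlap by 1 library, and the small fall of -0.22 (SE 0.0808) had an adjusted p of 0.0321 in edgeR. It was not called with total-count scaling (adjusted p 0.0507) or without DMSO replicate 2 (0.092), DMSO replicate 4 (0.094), 4OHT replicate 1 (0.0735), 4OHT replicate 2 (0.0778) or 4OHT replicate 4 (0.0798), in edgeR. The Mettl3 set gave nearly the same size, -0.22 (SE 0.0996), without a call (adjusted p 0.128, edgeR), from 42.2 and 42.6 CPM in WT to 36.6 and 35.5 in KO. Without KO replicate 1, again with the spread of the WT pair alone, the adjusted p was 0.0408 in edgeR. The Dux set held 84.3 to 113 CPM under DMSO and 91.8 to 133 under 4OHT (0.19, SE 0.0995, adjusted p 0.157, edgeR). Of its 986 exonic bases, 71.501% lie opposite Gm17300 and 13.692% are shared with Rcc1 on the same strand, so its count is uncertain.

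Snhg12 (chr4:132308623-132311024, plus strand) had 21.6 to 24.5 CPM under DMSO and 16.3 to 21.7 under 4OHT in the Ythdc1 set (-0.22, SE 0.093, adjusted p 0.0656, edgeR). The ranges overlap narrowly. With the replicate block the adjusted p was 0.0242, and without 4OHT replicate 2 it was 0.0268 (edgeR). For the Mettl3 set, Snhg12 fell from 22.7 and 20.4 CPM to 14.5 and 16.5 (-0.46, SE 0.131, adjusted p 0.0253, edgeR). This call was lost without WT replicate 1 (adjusted p 0.266), without WT replicate 2 (0.135) and with no filter on low counts (0.0607) in edgeR. The Dux set ranged from 27.1 to 37.4 CPM under DMSO and from 23.4 to 41.1 under 4OHT, with a pooled change of -0.02 (SE 0.131, adjusted p 0.914, edgeR).

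The share of all entries that passed was 45.1% in the Ythdc1 set, 31.2% in the Mettl3 set and 36.4% in the pooled Dux set. The snoRNAs that the hosts above carry have entries of their own, 23 of which were tested. In the Ythdc1 set 1 of them passed, Snora73a of Snhg3, which fell from 6.13 ± 0.668 to 3.56 ± 0.259 CPM (SD, n = 4 each; log2 fold change -0.76, adjusted p 0.000347, edgeR). In the Mettl3 set 2 passed, both lower and both of Gas5: Gm26224 (-1.05, adjusted p 0.00869, edgeR) and Gm22357 (-0.55, adjusted p 0.0221, edgeR). In the pooled Dux set 3 passed, each higher: Gm22357 (0.54, adjusted p 0.0382, edgeR), Snora73b of Snhg3 (0.38, adjusted p 0.0483, edgeR) and Gm25894 of Snhg1 (0.38, adjusted p 0.0488, edgeR). The difference of the 4OHT effects on Snora73a between the Ythdc1 and Dux sets was -0.99 (adjusted p 0.00673, edgeR).

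Relative to the host's own count, the 2 snoRNA entries of Snhg3 amounted to 29.2% to 43.0% in the Ythdc1 set, 84.9% to 99.1% in the Mettl3 set and 130% to 183% in the Dux set. The same ratio for the 9 entries of Gas5 stayed between 43.2% and 54.0% in all 22 libraries. Smaller differences between sets were seen for other hosts. The ratio of Snhg12 was 28.1% to 37.0% in the Ythdc1 set, 37.4% to 49.8% in the Mettl3 set and 39.7% to 47.3% in the Dux set. That of Snhg1 was 49.5% to 54.0% in the Ythdc1 set and 53.6% to 58.6% in the Dux set. The ratio of Snhg3 thus differed between the sets far more than within them. The snoRNAs of Gas5, Snhg1 and Snhg12 lie wholly inside annotated exons of the host, so host and snoRNA entries cover the same bases. No source at hand says how the authors split such reads or which fragment lengths each library kept.

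Zbtb37, read from the opposite strand beside Gas5, rose in all 3 sets, by 0.62 in the Ythdc1 set (adjusted p 2.01e-06), 0.40 in the Mettl3 set (adjusted p 0.0298) and 0.72 in the pooled Dux set (adjusted p 5.47e-05), in edgeR. Rcc1, the regulator of the GTPase Ran, which shares exonic bases with Snhg3, fell in all 3, by -0.57 (adjusted p 5.77e-06), -0.68 (adjusted p 0.000722) and -0.72 (adjusted p 0.000166) in edgeR. Snhg3 itself passed in the Ythdc1 set alone of these 3. Slc3a2, beside Snhg1, passed in none of the 3 sets, and Trnau1ap, beside Snhg12, fell in the Mettl3 set (-0.69, adjusted p 0.00469, edgeR).

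Other snoRNA hosts moved in both directions. Over all entries 45.1% passed in the Ythdc1 set, 31.2% in the Mettl3 set and 36.4% in the pooled Dux set. Of 13 other hosts tested in the Ythdc1 set, 1 rose and 5 fell, with a median log2 fold change of -0.14. Snhg15 rose (0.97, adjusted p 4.15e-07, edgeR), and Snhg18 (-0.96, adjusted p 0.00967, edgeR) and Epb41l4aos (-0.66, adjusted p 0.00229, edgeR) fell most. The level of Snhg18 was low, 1.76 ± 0.364 CPM under DMSO and 0.895 ± 0.245 under 4OHT (SD, n = 4 each). Between Mettl3 KO and WT, 3 of 14 rose, led by Snhg9 (0.78, adjusted p 0.042) and Snhg14 (0.51, adjusted p 0.00641), in edgeR. Snhg5 (-0.61, adjusted p 0.00534) and Snhg11 (-0.45, adjusted p 0.0265) fell, in edgeR. The level of Snhg9 was low too, 2.0 ± 0.231 CPM in WT and 3.4 ± 0.0901 in KO (SD, n = 2 each). Over the pooled Dux set 3 of 14 rose, with Snhg15 (0.69, adjusted p 0.00134) and Dancr (0.38, adjusted p 0.0169) ahead, and Epb41l4aos fell (-0.38, adjusted p 0.038) in edgeR. Snhg4, Snhg7 and Snhg16 were not found in the table.

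The factors of nonsense-mediated decay, which limits spliced host RNAs, did not move one way. The share of all entries that passed was 45.1% in the Ythdc1 set, 31.2% in the Mettl3 set and 36.4% in the pooled Dux set. For the Ythdc1 set, 3 of 10 decay factors rose and 3 fell. Upf1, the helicase at the centre of the pathway, fell from 228 ± 6.89 to 148 ± 5.72 CPM (SD, n = 4 each; -0.60, adjusted p 2.21e-07, edgeR). Smg5 rose (0.36, adjusted p 3.93e-05, edgeR). In the Mettl3 set 2 rose, Smg8 (0.59, adjusted p 0.00243) and Smg1 (0.33, adjusted p 0.00712), and 4 fell, most of all Upf3a (-1.18, adjusted p 0.000265) and Upf1 (-0.64, adjusted p 0.00138), in edgeR. In the pooled Dux set Upf2 rose (0.27, adjusted p 0.0246) and Upf1 (-0.51, adjusted p 0.000298) and Smg8 (-0.45, adjusted p 0.00585) fell in edgeR. Upf1 thus fell in all 3 sets.

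Of all long noncoding genes tested, 33.9% passed in the Ythdc1 set, 19.5% in the Mettl3 set and 27.8% in the pooled Dux set. Among 32 other long noncoding RNAs tested in the Ythdc1 set 15 rose and 8 fell (median 0.30, against 0.10 over 3186 long noncoding genes). Rmst, a neural RNA near the limit of detection (0.0918 ± 0.0944 to 0.635 ± 0.257 CPM, SD, n = 4 each), had the largest rise (2.7, adjusted p 0.00257, edgeR), followed by Platr27 (2.10, adjusted p 1.05e-05, edgeR). Firre, an X-linked nuclear RNA, fell from 159 ± 12.3 to 66.7 ± 9.36 CPM (-1.23, adjusted p 2.07e-08, edgeR) and Platr14 fell by 1.18 (adjusted p 4.45e-06, edgeR). Within the Mettl3 set 3 of 31 rose and 14 fell (median -0.54, against 0.00 over 3151 long noncoding genes). Halr1, beside the HoxA cluster, fell from 14.3 ± 0.326 to 0.542 ± 0.32 CPM (SD, n = 2 each; -4.69, adjusted p 1.98e-05, edgeR) and Platr15 by 4.49 (adjusted p 8.7e-05, edgeR). Lncpint (1.2, adjusted p 0.000587, edgeR) and H19 (1.18, adjusted p 1.91e-05, edgeR) rose. Across the pooled Dux set 11 of 32 rose and 3 fell, with Platr27 (1.22, adjusted p 0.000612) and Lncpint (1.18, adjusted p 2.02e-06) at the top and Firre (-0.89, adjusted p 4.52e-05) and Platr10 (-0.40, adjusted p 0.00932) at the bottom, in edgeR.

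**Figure D4:**
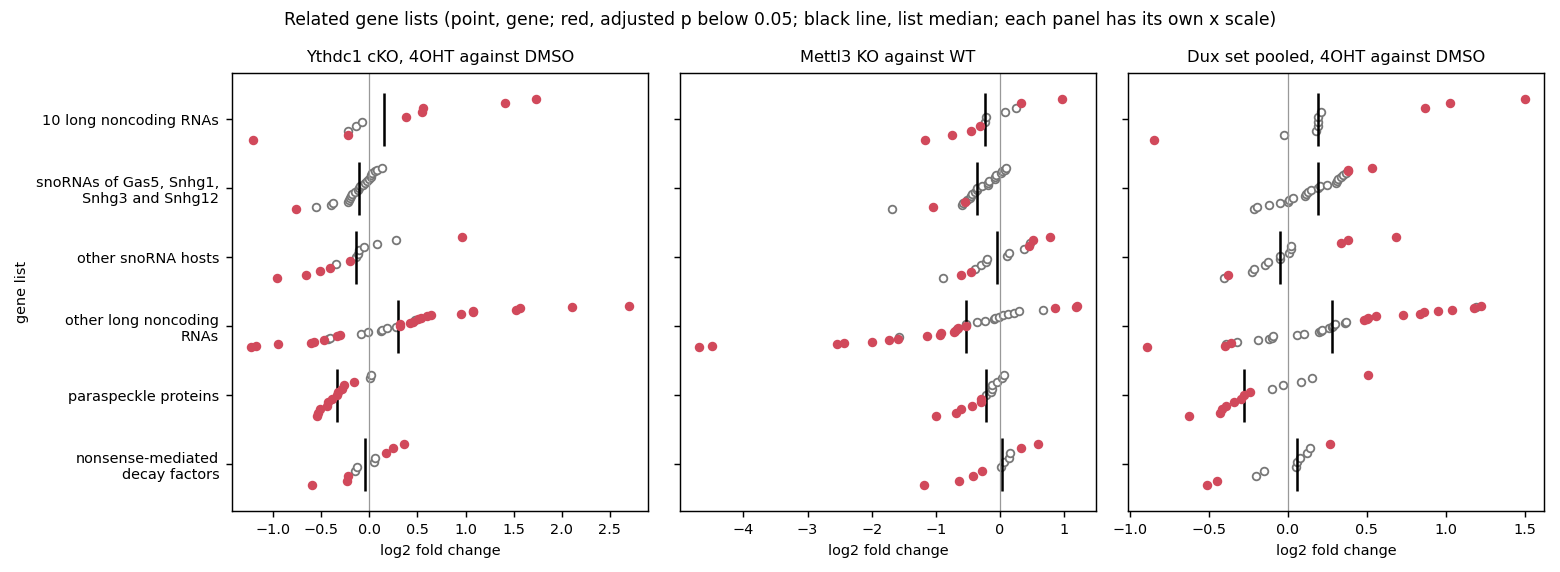
Log2 fold change (x axis, own scale in each panel) of every tested gene of 6 lists in the Ythdc1, Mettl3 and pooled Dux comparisons; red points have an adjusted p below 0.05 in edgeR and black lines are list medians. The paraspeckle proteins lie mostly left of 0, with medians of -0.34, -0.22 and -0.28, while the 10 long noncoding RNAs spread to both sides.

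Loss of Dux, the factor that switches on genes of the two-cell embryo, was not seen to alter any of the 10. Between Dux-KO and Dux-Het, 0 members passed under DMSO, 0 under 4OHT and 0 in the test of the difference between both 4OHT effects, by edgeR, and DESeq2 also called 0 in each. None reached an unadjusted p of 0.05 in any of these tests, the lowest being 0.0969, 0.0705 and 0.294. Over all 29322 entries edgeR called 0.0341%, 0.276% (0.00341% higher, 0.273% lower) and 0.0% in these comparisons. The difference between the 4OHT effects in Dux-KO and Dux-Het was 0.17 (SE 0.19) for Malat1, -0.08 (SE 0.229) for Neat1, 0.19 (SE 0.268) for Tug1 and 0.24 (SE 0.321) for Pvt1 on the log2 scale. With 2 libraries a group these errors leave room for differences of that size or larger in either direction.

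In the pair without a Dux label each treatment is a single library, so its differences have no replicate check. Its log2 ratios of 4OHT to DMSO, with 0.5 CPM added, were 0.79 for Malat1, 0.85 for Neat1, -1.10 for Tug1 and 1.02 for Pvt1, and between -0.32 and 0.29 for the other 6. In this pair 3.84% of 26903 entries had a log2 ratio of 1 or more and 1.38% of -1 or less. Neat1 was at 122 CPM under DMSO (95% exact Poisson interval 118 to 125, which covers counting error only) and at 220 under 4OHT (215 to 224).

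By the pattern of the 10 group means of log2 CPM, each centred on its own mean, the entries nearest to each member among 10172 with at least 10 CPM were mostly not long noncoding RNAs. Nearest to Malat1 was Ermard (root mean square difference 0.108, where the pattern of Malat1 itself has a root mean square of 0.37). For Neat1 it was another long noncoding RNA, Lncpint (0.286 of 0.754). Tug1 was nearest to Plk1 (0.129 of 0.488) and Rrm2 (0.13), genes of mitosis and of nucleotide synthesis, and Kcnq1ot1 to Pkd2 (0.0928 of 0.351). Snhg3 was nearest to the ribosomal protein genes Rps20 (0.173 of 0.746) and Rps27a (0.194), Snhg1 to Polr1a (0.091 of 0.301), Gas5 to Srp54b (0.125 of 0.271) and Snhg12 to Gm34939 (0.128 of 0.352). Pvt1 was nearest to Prcp (0.15 of 0.544) and Lncenc1 to Morc1 (0.183 of 0.827). The 10 means come from 3 sets of libraries that differ in level, so a likeness can come from the sets, and it is given without a test.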

How the data were processed

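RNA from 22 libraries of mouse ESCs was sequenced after removal of ribosomal RNA, per the labels' protocols. The authors deposited raw counts, as whole numbers, for 44749 entries. Symbols of GENCODE vM21 account for 43672 and repeat families for 1077. Per the submitters' processing notes, the tools include STAR 2.7, RSEM, Bowtie2 and bcl2fastq, with the build mm10. No source at hand gives the counter, its strand setting or its treatment of multi-mapped reads. The authors also deposited a normalized signal, each count divided by 1 factor per library (largest relative deviation 5.44e-15 over 34971 complete lines), used only as an alternative scaling.

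Groups follow the sample titles. For the Dux set the genotype and treatment fields are shifted by 1 sample against the titles, which match the column names. The columns of the Ythdc1 set carry no ESC line, so lines were pooled. Deviations from the group mean correlated between same-numbered libraries of this set at 0.317, 0.106, 0.354 and 0.316 over 10172 entries. The highest value for unlike numbers was 0.096, between DMSO replicate 1 and 4OHT replicate 2. Pairing by number was therefore not clear for number 2. Same-numbered libraries correlated at 0.542 in Dux-Het, 0.245 in Dux-KO and 0.074 in the Mettl3 set. With 2 libraries a group, unlike numbers there give the same value with the opposite sign. The main fit left the numbers out, and with them as a replicate block 9 members passed in the Ythdc1 set.

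Differences were tested on counts with edgeR 4.0.16 under R 4.3.3 (low counts removed with filterByExpr, TMM scaling, glmQLFit and glmQLFTest), adjusted by Benjamini-Hochberg over all entries tested, at a threshold of 0.05. All adjusted p-values come from edgeR. SE is the size of the log2 fold change divided by the root of its F statistic. CPM use 1 TMM scaling over all 22 libraries. Sets were fitted apart, except for the tests of differences between sets. Replicates of 1 group differed beyond counting error (chi-square per degree of freedom 3.741 to 99.068 in 18 pairs). The fitting script was tested on simulated counts. Alternatives were DESeq2 1.42.0, other scalings, no filter, gene entries alone, a replicate block and each library left out.

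The members and lists were chosen with earlier results of these data known. All members are named in each comparison, and from each list at most the 2 largest called rises and the 2 largest called falls. Genes beside a member are named where a result turns on them. Some results are not reported here.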

Additional observations from a re-analysis of the deposited data

Results flagged for a closer look

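In the 4 Ythdc1 cKO libraries under 4OHT, Kcnq1ot1 was at 619 CPM in replicate 1 against 544 to 556 in the others, a gap large for a group of 4 by Dixon's test at the 95% level. In the 4 libraries under DMSO, Snhg1 had a low library at 93 CPM against 97.5 to 98.4, and Snhg12 a high one at 24.5 CPM against 21.6 to 22. These are 3 of 20 groups of 4 tested, where chance gives about 1 in 20. The rise of Kcnq1ot1 in the Ythdc1 set passed without each library in turn, and Snhg1 did not pass in any alternative there.

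The 4OHT effect on Malat1 was smaller in the Ythdc1 set than in the Dux set by 0.47 on the log2 scale (difference -0.47, adjusted p 0.00877 in edgeR), a test of the difference itself. It passed in all 25 alternatives, with differences of -0.57 to -0.43.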

How the results depend on the processing

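Across 1802 alternative settings of 120 results, 50 changed the call of a member, 40 of them with a library left out. A reversed sign occurred in 70 settings of 31 results, and in none of these was the value past the threshold in either fit; the cause was not tested. The count of called members ran from 1 to 8 in the Mettl3 set, 2 to 4 in Dux-Het, 2 to 4 in Dux-KO and 1 to 2 for the Ythdc1 minus Dux difference with a library left out, and was 4 for that difference with no filter. With the replicate block, Gas5 (-0.14, adjusted p 0.0398) and Snhg12 (-0.22, adjusted p 0.0242) also passed in the Ythdc1 set in edgeR (9 members), and the block changed no other call. The share of all entries called ran from 28.9% to 48.8% in the Ythdc1 set and from 1.36% to 38.3% in the Mettl3 set. With 2 libraries a group, small differences were not detectable. The Malat1 ratio of the pair with no Dux label was 0.83 with total counts.

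Signs that turned (log2 values): Snhg12 was 0.0385 in Dux-KO and 0.0231 pooled with total counts, and 0.0034 pooled with gene entries alone. Snhg1 between Dux-KO and Dux-Het under 4OHT was -0.0137 in DESeq2, -0.0130 with DESeq2 size factors, -0.0011 with the authors' factors, -0.0140 with no filter and -0.0132 with gene entries alone. Snhg3 in Ythdc1 minus Mettl3 was -0.0352 with total counts and -0.0081 with the authors' factors.

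With each library left out the lowest and highest values were -0.0494 and 0.1831 for Pvt1 in the Mettl3 set, -0.2443 and 0.1602 for Snhg12 in Dux-KO, -0.1640 and 0.0507 for Snhg12 pooled, and -0.0288 and 0.0692 for Snhg3 in Ythdc1 minus Mettl3. In Dux-Het they were Kcnq1ot1 -0.2816 to 0.5276, Snhg1 -0.1795 to 0.4463, Snhg3 -0.0085 to 0.2636, Snhg12 -0.2047 to 0.3749 and Lncenc1 -0.1009 to 0.5583. In Dux-KO against Dux-Het under DMSO they were Malat1 -0.1077 to 0.0698, Neat1 -0.0252 to 0.1141, Tug1 -0.5217 to 0.0115, Kcnq1ot1 -0.7912 to 0.0031, Gas5 -0.5128 to 0.0318, Snhg1 -0.5856 to 0.0391, Snhg3 -0.2260 to 0.1462 and Snhg12 -0.4517 to 0.0270. Under 4OHT they were Neat1 -0.2435 to 0.1967, Kcnq1ot1 -0.5502 to 0.0653, Snhg1 -0.1884 to 0.1700, Snhg3 -0.1161 to 0.2571 and Pvt1 -0.3674 to 0.2271. For the difference between the 4OHT effects in Dux-KO and Dux-Het they were Neat1 -0.2819 to 0.1378, Tug1 -0.0680 to 0.4691, Kcnq1ot1 -0.2809 to 0.5139, Gas5 -0.4065 to 0.1384, Snhg1 -0.0367 to 0.5885, Snhg3 -0.1001 to 0.2996, Snhg12 -0.3895 to 0.1538, Pvt1 -0.0630 to 0.5529 and Lncenc1 -0.2780 to 0.3822.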
